A study of Mus musculus with 6 samples.

Results

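Jchain, Xbp1, Sdc1, Prdm1, Tnfrsf17 and Mzb1 are genes by which antibody-secreting plasma cells are usually recognised, and their expression was followed in leukaemic pre-B cells after deletion of Sox4 was induced. The 6 genes were chosen by name, with earlier results of these data known. Each was represented by the 1 probe set of the array that maps to it alone. All 6 were measured, among 19938 genes in all.

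The cells were pre-B cells of 5-week-old 129SvEv x C57BL/6J mice, transformed by BCR-ABL1, an always-active tyrosine kinase that drives Philadelphia chromosome-positive leukaemia. All carried floxed alleles of Sox4 (Sox4fl/fl), a transcription factor of B-cell progenitors. The control group of 3 samples was transduced with ERT2 (a hormone-binding domain alone) and the other group of 3 samples with Cre-ERT2, the same domain fused to a recombinase that 4OHT (4-hydroxytamoxifen) activates. Each sample's total RNA, taken 24 h after induction with 4OHT, was read on 1 Affymetrix array. There was no sample with Cre-ERT2 and intact, unfloxed Sox4, so loss of Sox4 and activity of Cre cannot be told apart. Whether samples of 1 group were separate cultures is not in the labels, and p-values therefore rest on a spread between samples that may be technical.

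A B cell that becomes a plasma cell switches on Prdm1, which encodes the repressor Blimp-1, and with it Xbp1, the transcription factor that enlarges the endoplasmic reticulum for secretion. Blimp-1 shuts down Pax5 and other genes of B-cell identity, and Pax5 in turn holds down Prdm1, Xbp1 and Jchain in B cells. The finished cell carries syndecan-1 (Sdc1, the CD138 antigen) and BCMA (Tnfrsf17) on its surface, folds immunoglobulin with the help of Mzb1, and joins IgM and IgA into polymers with the J chain. Jchain is not restricted to plasma cells: plasmacytoid dendritic cells transcribe it as well. Pre-B cells stand several stages before this change and do not secrete antibody.

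Values are deposited intensities of the normalised arrays, and differences and their SEs are on the scale of log2(intensity + 1), Cre-ERT2 minus ERT2. A gene was called higher or lower at a limma adjusted p under 0.05, adjusted by Benjamini-Hochberg over the whole array of 35556 probe sets. The array medians ranged from 273 to 279, and precision is limited by having 3 arrays per group. Sox4 itself (probe set 10408450) fell to 40.3% of the mean intensity of the controls (limma adjusted p = 0.000434). The pre-B genes Igll1, Cd79a, Cd79b and Ebf1 had mean intensities from 10297 to 19026 in both groups. Of the 10 pre-B genes measured 3 were called lower, where 3.72% of all genes were. These were Rag1, Rag2 and Il7r, with log2 differences of -0.89, -1.35 and -0.93. In bulk RNA, fewer cells of a type and less RNA per cell cannot be told apart.

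Of the 6 plasma-cell genes 3 were called higher, 1 was called lower and 2 were not called, while over all 19938 genes 4.38% were called higher and 3.72% lower. Jchain rose several-fold, Xbp1 and Mzb1 rose by much less, Sdc1 fell, and neither Prdm1 nor Tnfrsf17 passed the test. In 5 of the 6 genes the groups did not overlap, as in 28.3% of all genes. As the 6 were chosen with earlier results known, these counts are a description and no test of the set.

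Jchain, which encodes the small protein that links IgM and IgA monomers, was the member with the largest difference. Its probe set (10531126) read 409, 427 and 348 in the ERT2 arrays and 1676, 1822 and 1737 in the Cre-ERT2 arrays. The lowest Cre-ERT2 array was far above the highest control, and ERT2 replicate 3 was the lowest of all. The mean intensity was 395 ± 41.3 (SD, n = 3) in ERT2 and 1745 ± 73.2 (SD, n = 3) in Cre-ERT2 cells. The log2 difference was 2.15 (SE 0.0861, 95% interval 1.94 to 2.35, limma adjusted p = 6.21e-05), a 4.42-fold rise. By the size of its rise Jchain was number 9 of 19938 genes. A two-sided exact permutation test of the 3 against 3 arrays gave p = 0.1, the smallest it allows, for Jchain and for each other member whose groups did not overlap.

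The stretch before the start of Jchain is shown because this gene carried the largest change, and Sox factors bind short A-rich sites. It spans the 250 bases upstream of the RefSeq start on the minus strand at chr5:88527898-88528147 of GRCm38.p6, printed 5′ to 3′ in the direction of the gene. No base is in capitals, because none of the 6 motifs searched on both strands was found in it.

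Jchain: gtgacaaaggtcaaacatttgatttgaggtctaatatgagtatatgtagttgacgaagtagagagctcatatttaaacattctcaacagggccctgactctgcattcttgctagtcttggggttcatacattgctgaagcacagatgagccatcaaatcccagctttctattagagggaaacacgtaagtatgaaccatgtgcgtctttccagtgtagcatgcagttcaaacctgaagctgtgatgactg

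The motifs were AACAAAG and AACAAT for Sox factors, ATGCAAAT for octamer factors, TGACGT and CCACG as parts of the elements of the unfolded protein response, and GAAAGT as the core of the Blimp-1 site. Over 32851 RefSeq promoter windows of this length AACAAAG was present in 5.03%, AACAAT in 9.42%, ATGCAAAT in 1.6%, TGACGT in 6.47%, CCACG in 28.3% and GAAAGT in 12.3%. A window was given for 5 of the 6 members. The Xbp1 window, like that of Jchain, held none of the 6 motifs, and the Prdm1 window held CCACG, which overlapped no other motif, in 2 places. The Tnfrsf17 window held GAAAGT on the opposite strand, also in 2 places. No window of these 5 held AACAAAG or AACAAT, which says only that these letters are not there. Only exact matches were searched, so a near-match such as gacaaag at the 5′ end of the Jchain window was not counted. Near-matches were searched in no window, and their share over all windows is unknown here, so nothing is read from this one.

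Of the transcription factor genes of the set, Xbp1 passed the test and Prdm1 did not. Xbp1 (probe set 10374035) read 8493, 7938 and 8052 in ERT2 and 10943, 10545 and 10381 in Cre-ERT2 arrays. All 3 Cre-ERT2 arrays lay above all controls, by a margin that was small beside that of Jchain. The difference was 0.38 on the log2 scale (SE 0.0511, 95% interval 0.26 to 0.50, limma adjusted p = 0.00702), or 1.3-fold. The active form of Xbp1 arises by splicing of its mRNA, and 1 probe set does not tell the spliced from the unspliced form.

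Prdm1, which encodes Blimp-1 and starts the plasma-cell state, was not called. Its probe set (10368970) read 115, 118 and 118 in ERT2 and 109, 97.6 and 109.5 in Cre-ERT2 arrays. The Cre-ERT2 arrays were all lower than the controls, by a mean difference no larger than the log2 range of 0.16 among themselves. The difference was -0.15 on the log2 scale (SE 0.0601, 95% interval -0.29 to -0.0049), with an unadjusted p = 0.0446 and a limma adjusted p = 0.275. This interval, which is not adjusted for the number of genes, covers no rise of Prdm1. The mean of the probe set was below the median of all probe sets, where a change of RNA may be read as smaller than it is.

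Mzb1, a chaperone of the endoplasmic reticulum that helps to assemble and secrete immunoglobulin and is also made in marginal zone B cells, rose by a borderline amount. Its probe set (10458278) read 3593, 3333 and 3008 in ERT2 and 4274, 4234 and 4139 in Cre-ERT2 arrays. The groups did not overlap, although the controls differed among themselves by 0.26 on the log2 scale and the Cre-ERT2 arrays by 0.046. The difference was 0.35 (SE 0.0726, 95% interval 0.18 to 0.53, limma adjusted p = 0.0412). The call of Mzb1 ended without any 1 array other than ERT2 replicate 1. Its adjusted p was then 0.0834 without ERT2 replicate 2, 0.067 without ERT2 replicate 3, and 0.133, 0.14 and 0.129 without Cre-ERT2 replicates 1, 2 and 3. It ended too under median centring (0.0539) and with the replicate number as a block (0.0549).

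Sdc1, the heparan sulphate proteoglycan by which plasma cells are sorted, went down. Its probe set (10394471) read 952, 963 and 833.5 in ERT2 and 589.8, 623 and 568 in Cre-ERT2 arrays. Every Cre-ERT2 array was lower than every control, and ERT2 replicate 3 was the lowest of the controls here as for Jchain. The mean intensity in Cre-ERT2 cells was 64.8% of that in ERT2 cells, with a log2 difference of -0.62 (SE 0.0737, 95% interval -0.80 to -0.45, limma adjusted p = 0.00427). Early B-lineage cells also carry syndecan-1, so its level in these cells is no mark of plasma cells by itself. Its upstream window is shown beside that of Jchain because these are the largest rise and the largest fall among the 6. It lies on the plus strand at chr12:8771146-8771395 of GRCm38.p6, and the capitals mark the 1 motif found, CCACG on the opposite strand.

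Sdc1: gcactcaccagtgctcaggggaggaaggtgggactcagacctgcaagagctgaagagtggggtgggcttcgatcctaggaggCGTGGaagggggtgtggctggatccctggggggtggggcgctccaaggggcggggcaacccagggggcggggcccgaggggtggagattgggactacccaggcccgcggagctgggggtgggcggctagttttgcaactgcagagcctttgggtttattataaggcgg

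The windows also differ in base composition, with 42% G and C for Jchain and 66% for Sdc1, against a median of 52.4% over all windows.

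Tnfrsf17, which encodes BCMA, the survival receptor of long-lived plasma cells, was not called. Its probe set (10433584) read 168, 161 and 177 in ERT2 and 189.7, 166 and 180.1 in Cre-ERT2 arrays. The groups overlapped, with Cre-ERT2 replicate 2 below ERT2 replicates 1 and 3. The difference was 0.08 on the log2 scale (SE 0.0684, 95% interval -0.08 to 0.25, limma adjusted p = 0.668), so a rise by more than 0.25 lay outside the interval. The mean of this probe set too was below the median of all.

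**Figure D1:**
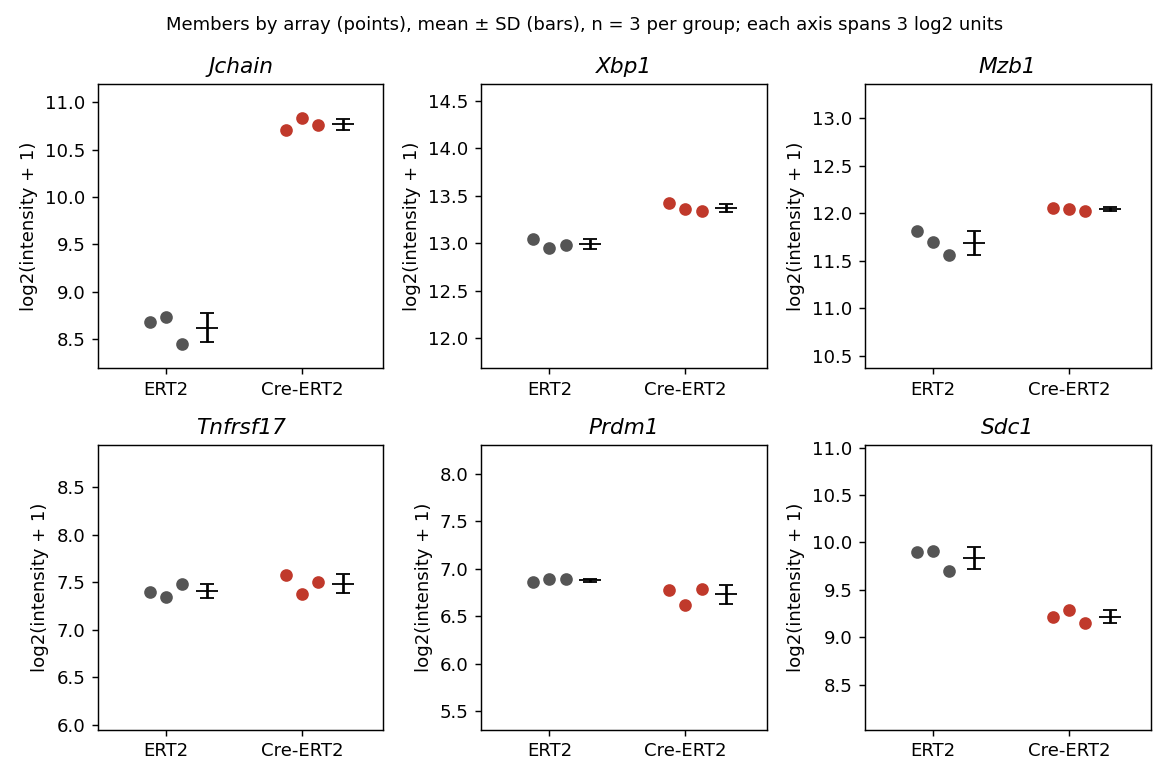
Each panel plots log2(intensity + 1) of 1 gene in the 3 ERT2 arrays (grey points) and the 3 Cre-ERT2 arrays (red points), with the group mean ± SD as a black bar beside them, on axes of equal length. Jchain rises by 2.15, Xbp1 and Mzb1 by 0.38 and 0.35, the points of Tnfrsf17 overlap, and Sdc1 falls by 0.62.

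The change of Jchain was then set against that of each other member, array by array, which cancels what the genes share within an array. The log2 change of Jchain exceeded that of Xbp1 by 1.77 (SE 0.10) and that of Mzb1 by 1.79 (SE 0.067). It exceeded that of Tnfrsf17 by 2.06 (SE 0.16), that of Prdm1 by 2.29 (SE 0.13) and that of Sdc1 by 2.77 (SE 0.040). In each of the 5 pairs all Cre-ERT2 arrays lay above all ERT2 arrays. The exact two-sided permutation test gave p = 0.1 for each pair, which is the smallest that 3 against 3 arrays allow, and 0.1 after adjustment over the 5. The design therefore cannot take these differences past 0.05 by this test. Each was more than 10 times its SE, which rests on 3 arrays per group. As Jchain had the largest rise of the members, each excess had to be above 0.

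Jchain and Sdc1 varied in step among the ERT2 arrays, although they moved apart between the groups. The SD of the array-wise log2 difference between both genes was 0.043 in ERT2 cells, where Jchain alone had an SD of 0.15 and Sdc1 of 0.12. In Cre-ERT2 cells it was 0.054, close to the SDs of Jchain (0.06) and Sdc1 (0.068) alone. These SDs were the smallest of the 5 pairs with Jchain. ERT2 replicate 3 was also the lowest control for other genes, such as Mzb1 (3008), Dntt (712), Id3 (814) and Rag1 (1048). For Tnfrsf17 it was the highest (177). A low reading in that array is thus not particular to Jchain and Sdc1. With 3 arrays per group this is a description only.

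The genes whose profile over the 6 arrays came nearest to that of Jchain, by Euclidean distance of centred log2 values, were Zfp182, Galnt14, Elovl7, St6galnac5 and Nlrp1a, at distances from 0.216 to 0.345. They rose by 2.08, 1.94, 2.18, 1.93 and 2.00. Zfp182 is a zinc-finger gene, Galnt14 and St6galnac5 encode glycosyltransferases, Elovl7 a fatty acid elongase and Nlrp1a an inflammasome sensor. Among 19937 genes ranked this way Xbp1 was number 582, Mzb1 number 639 and Tnfrsf17 number 6032, while Prdm1 and Sdc1 came at 18284 and 19594. The 6 arrays share the group difference, which sets most of this order.

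Called genes of the wider plasma-cell programme moved in both directions, with Slamf7 as the largest change, while most genes of the list leaned upwards by small amounts. Slamf7, the CS1 receptor that is abundant on plasma cells, read 1485, 1508 and 1435 in ERT2 and 289.5, 339.6 and 306 in Cre-ERT2 arrays, so that the controls were several times higher. It fell by 2.24 on the log2 scale (SE 0.0695, limma adjusted p = 2.7e-05). Ell2, the elongation factor that favours the secreted form of the heavy chain mRNA, read 3038, 3185 and 3083 in ERT2 and 2183, 2212 and 2134 in Cre-ERT2 arrays. It fell by 0.51 (SE 0.0463, limma adjusted p = 0.00131). Both are genes that plasma cells raise.

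Among the rises of that list were Pim2, a survival kinase (0.43, SE 0.0539, limma adjusted p = 0.0054), and Tnfrsf13b, the TACI receptor for BAFF and APRIL (0.38, SE 0.0542, limma adjusted p = 0.00944). Atf6, a stress sensor of the endoplasmic reticulum, rose by 0.27 (limma adjusted p = 0.0307), and this call ended when any 1 array other than ERT2 replicate 2 was left out, and with the replicate block (0.0669 to 0.13). Irf4, the factor that acts with Blimp-1, differed by 0.22 (limma adjusted p = 0.0571) and passed under 5 of 18 alternatives, such as an intensity trend (0.0202 to 0.0438 over the 5). In all, 3 of 16 measured genes rose and 2 fell, against 873 and 742 of 19938. Of the 16, 13 had a difference above 0 (81.2%, against 59.3% of all genes) and 3 below. The median difference was 0.12, against 0.021 over all genes. The list is described by these counts and was not tested as a set.

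Genes of the secretory machinery, many of which Xbp1 activates, leaned upwards by small amounts. Of 47 measured genes 41 had a difference above 0 (87.2%, against 59.3% of all genes), with a median of 0.08. Called higher were 4, or 8.51% against 4.38% of all genes, and called lower were 2. Derl3, which takes misfolded proteins out of the endoplasmic reticulum, rose by 0.31 (SE 0.0502, limma adjusted p = 0.0164), and Sec24d, a coat protein of transport vesicles, by 0.53 (SE 0.0951, limma adjusted p = 0.0245). The chaperone Hyou1 and the degradation factor Herpud1 rose by 0.25 and 0.24 (limma adjusted p = 0.0256 and 0.0494). Edem1, which also serves degradation and is a known Xbp1 target, fell by 0.44 (SE 0.05, limma adjusted p = 0.00356), and Prdx4, a peroxidase of oxidative folding, fell by 0.41 (SE 0.0716, limma adjusted p = 0.0223).

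These small rises sat close to the threshold. The number of higher genes in the secretory list was 0 when ERT2 replicate 1 or Cre-ERT2 replicates 1 or 2 were left out, 1 when replicate 3 of either group was, and 2 without ERT2 replicate 2. It was 12 with an intensity trend in the variance model. Leaving out ERT2 replicate 1 or Cre-ERT2 replicates 2 or 3 ended the call of Prdx4, as did the replicate block (0.0649 to 0.0949). Derl3, Sec24d and Hyou1 lost theirs when 4, 4 and 6 of the 6 arrays were left out in turn, Hyou1 also with the replicate block (0.0673), and Herpud1 lost its call in 13 of 18 alternatives, each single array among them, whereas Edem1 kept its call in all 18 alternatives.

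**Figure D2:**
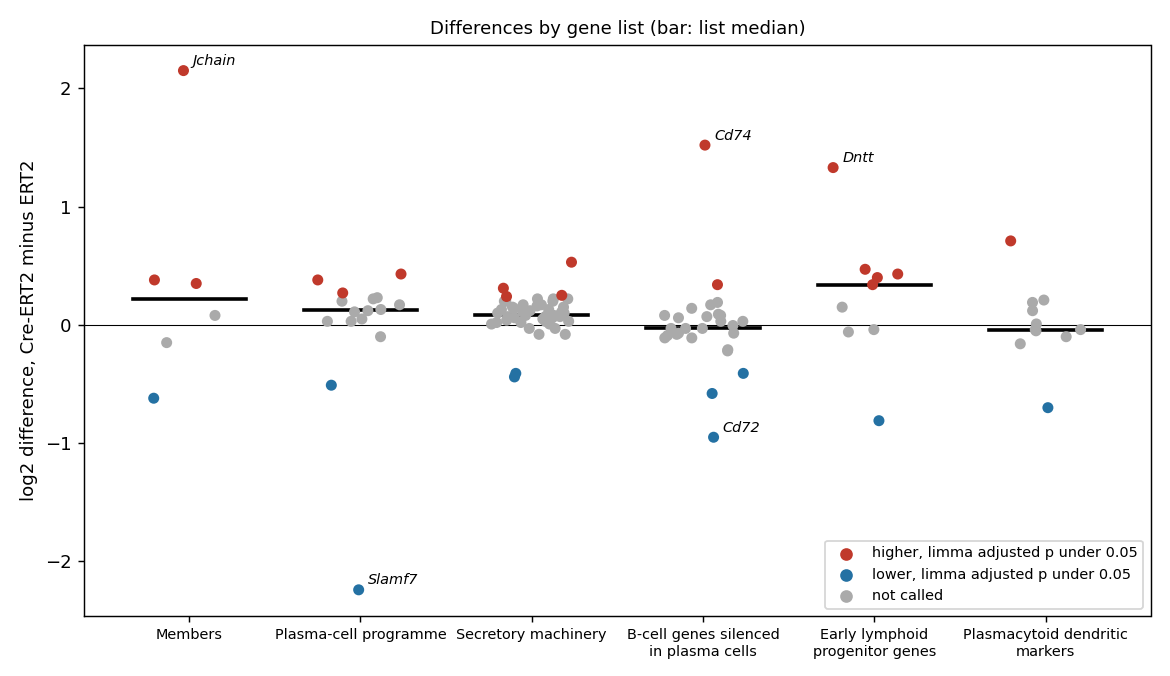
Each point is the log2 difference, Cre-ERT2 minus ERT2, of 1 measured gene, grouped by list, with the list median as a black bar. Red and blue mark genes called higher and lower by limma and grey those not called. Jchain (2.15) and Slamf7 (-2.24) stand at opposite ends, and the secretory genes lie close to 0.

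The immunoglobulin genes, the cargo of a plasma cell, were thinly covered, with 3 of 13 listed genes measured by a probe set of their own. None of them was called, where 4.38% of all genes were called higher and 3.72% lower. Mean intensities in ERT2 and Cre-ERT2 arrays were 295 and 249 for Ighm, 187 and 220 for Igha, and 56.1 and 60.3 for Ighg3. The mean of each probe set was below the median of all probe sets. There a change of RNA may be read as smaller than it is. Ighm, the mu heavy chain, had a difference of -0.25 (limma adjusted p = 0.0677), but its 2 other probe sets gave -0.01 and -0.21. It passed under 5 of 17 alternatives (0.0221 to 0.0482), among them cyclic loess and median centring. Igha, the alpha heavy chain, had 0.23 (limma adjusted p = 0.0547) and passed under 5 of 17 alternatives (0.0124 to 0.0496), among them cyclic loess. Ighg3 had a difference of 0.10. Igkc, Iglc1 and Iglv1 were present only in probe sets of several genes, which were not used. Of 4 receptors for antibody polymers none was called: Pigr, which carries J chain-linked antibody across epithelia, had a difference of -0.17 (limma adjusted p = 0.161), Fcamr 0.13, Cd5l 0.07 and Fcmr 0.07. The means of these 4 probe sets were below the median of all probe sets too.

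The relatives of Tnfrsf17 and Sdc1 were examined as well. Of the other receptors and ligands of the BAFF and APRIL system Tnfrsf13b rose, as given above, while Tnfrsf13c, the BAFF receptor, had a difference of 0.22 (limma adjusted p = 0.052) and passed under 5 of 18 alternatives (0.014 to 0.0394). Tnfsf13b, which encodes BAFF, had a difference of 0.02. Of the other syndecans none was called, with differences of -0.21 for Sdc4 (called lower with estimated array weights, limma adjusted p = 0.0299), 0.09 for Sdc3 and -0.03 for Sdc2. Whether the fall of Sdc1 differed from these was not tested.

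Genes that plasma cells silence did not move together. Of 27 measured B-cell genes 2 rose (7.41%) and 3 fell, where 4.38% and 3.72% of all genes did, with a median of -0.03. Only 20 of the 27 had a mean above the median of all probe sets. In the dimmer ones a fall may be read as smaller than it is. Cd74, a chaperone of class II molecules that plasma cells turn off, rose by 1.52 (SE 0.0532, limma adjusted p = 4e-05). Cd72, an inhibitory co-receptor, fell by 0.95 (SE 0.0552, limma adjusted p = 0.000219), and Cd22, another, fell by 0.41 (SE 0.0532, limma adjusted p = 0.00628). Ccr7, a homing receptor, rose by 0.34, and Id3, an inhibitor of E proteins, fell by 0.58 (limma adjusted p = 0.0215 and 0.0264). Pax5 read 6495, 6113 and 6189.9 in ERT2 and 5336, 5517 and 5306 in Cre-ERT2 arrays, without overlap. Its difference of -0.22 did not pass (SE 0.0488, limma adjusted p = 0.0552). Bach2, Bcl6 and Ciita, further genes that Blimp-1 or the plasma-cell state turns off, had differences of -0.11, -0.0052 and 0.03. Ciita was dim, with means of 180 in ERT2 and 184 in Cre-ERT2 arrays.

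The call of Ccr7 ended when ERT2 replicate 2 or a Cre-ERT2 array was left out (limma adjusted p from 0.0502 to 0.0903), which left 1 risen gene. Id3 lost its call on leaving out any array except ERT2 replicate 3 (0.0689 to 0.106). Pax5, on the other hand, passed under 7 of 18 alternatives, such as an intensity trend or cyclic loess (limma adjusted p from 0.00841 to 0.042).

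Because other cells transcribe Jchain, markers of such cells were read beside it. Of 11 measured markers of plasmacytoid dendritic cells 1 was higher (9.09%) and 1 lower, where 4.38% and 3.72% of all genes were. Tlr9 rose by 0.71 (SE 0.0563, limma adjusted p = 0.000753) and Tlr7 fell by 0.70 (SE 0.114, limma adjusted p = 0.0164). Leaving out ERT2 replicate 1 or Cre-ERT2 replicates 1 or 2 ended the call of Tlr7, as did the replicate block (0.052 to 0.0671). The probe set of Tlr7 was dim, with means of 118 in ERT2 and 72.0 in Cre-ERT2 arrays, below the median of all probe sets. Tlr9 is made by B cells as well. Siglech, which defines plasmacytoid dendritic cells in mice, read 206, 214 and 233.5 in ERT2 and 249, 234 and 229 in Cre-ERT2 arrays, with overlap between the groups (difference 0.12, limma adjusted p = 0.435). The summed intensity of the list lay between 4795 and 4988 in ERT2 and between 5263 and 5347 in Cre-ERT2 arrays, and no marker had a value of 0 on these arrays. Without Tlr9 the sum lay between 3899 and 4073 in ERT2 and between 3735 and 3878 in Cre-ERT2 arrays. The part of such cells in the rise of Jchain was not tested.

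Of 9 measured genes of early lymphoid progenitors 5 rose and 1 fell, where 4.38% and 3.72% of all genes did, and the median was 0.34 against 0.021 over all genes. This list too was chosen with earlier results of these data known, so its counts are a description only. Whether it differed from that of the plasma-cell programme was not tested. Dntt, the terminal transferase of immature lymphocytes, read 783, 873 and 712 in ERT2 and 2149, 1912 and 1888 in Cre-ERT2 arrays. It rose by 1.33 (SE 0.0914, limma adjusted p = 0.000412). Notch1, Lmo2, Mef2c and Flt3, regulators of early haematopoietic and lymphoid cells, rose by 0.47, 0.43, 0.40 and 0.34 (limma adjusted p from 0.00533 to 0.0428). Ly6d, which marks progenitors committed to the B lineage, fell by 0.81 (SE 0.135, limma adjusted p = 0.018). The summed intensity of the list lay between 8679 and 9958 in ERT2 and between 12217 and 12669 in Cre-ERT2 arrays. Flt3 was no longer called when any 1 of the 6 arrays was left out (0.0516 to 0.152), and also under median centring (0.0528) and cyclic loess (0.0513). Lmo2 was not called without Cre-ERT2 replicate 2 or 3 (0.0561 to 0.059), nor Mef2c without either of these or ERT2 replicate 1 (0.0534 to 0.0589). Ly6d was not called once ERT2 replicate 1 or a Cre-ERT2 array was left out (0.0505 to 0.0767).

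Among the pre-B genes themselves 0 of 10 measured rose and 3 fell, namely Rag1, Rag2 and Il7r (differences of -0.89, -1.35 and -0.93). Markers of other blood and stromal cells were read against the 4.38% of all genes that were higher and the 3.72% that were lower. Of T-cell genes 2 of 8 rose (25%), Cd5 by 0.56 and Lat by 0.47. The summed intensities of the 8 lay between 1989 and 2115 in ERT2 and between 2381 and 2526 in Cre-ERT2 arrays. The mean of Cd5 went from 385 in ERT2 to 566 in Cre-ERT2 arrays and that of Lat from 643 to 889. The other 6 T-cell genes were not called, with differences from -0.21 (Cd3g) to 0.08 (Cd4). Of myeloid genes Lyz2 rose by 1.4 and Itgam fell by 0.49 among 9. None of 7 NK-cell, 3 erythroid or 7 stromal genes was called. Cd3e, which defines T cells, had a difference of -0.0035, and Csf1r, a receptor of macrophages, one of -0.02. Itgam lost its call without ERT2 replicate 1 or Cre-ERT2 replicate 2 (0.0558 to 0.0574). Summed myeloid intensity lay between 1621 and 1631 in ERT2 and between 2005 and 2200.4 in Cre-ERT2 arrays. The other 8 genes without Lyz2 summed to between 1249 and 1321 in ERT2 and between 1164 and 1219 in Cre-ERT2 arrays. The part of these cells in the results was not tested.

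**Figure D3:**
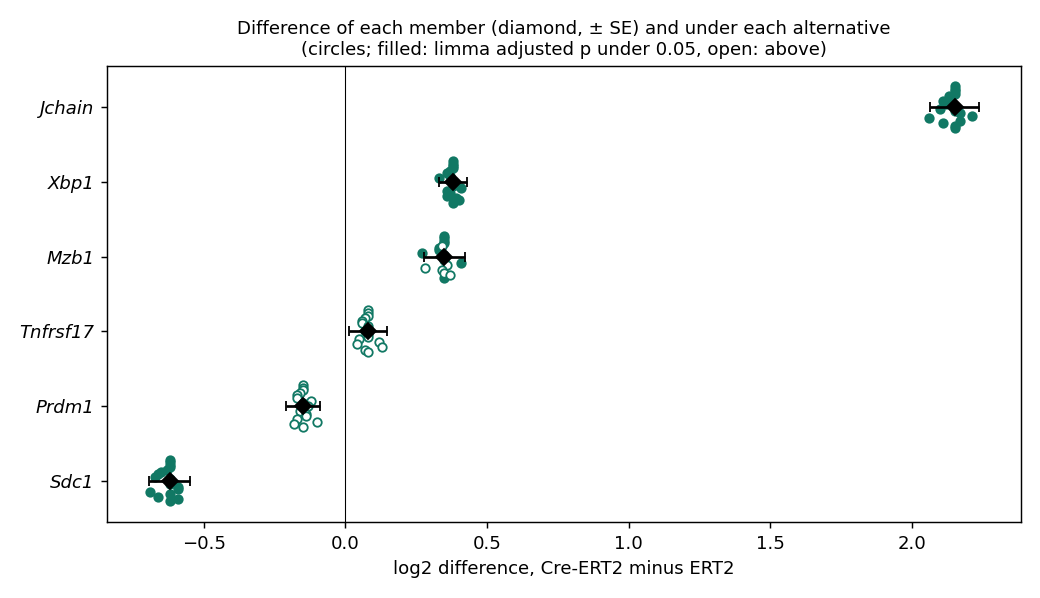
Black diamonds are the log2 differences of the 6 members, Cre-ERT2 minus ERT2, ± SE. Circles give the same under each alternative, filled where the limma adjusted p was under 0.05 and open where it was above. Jchain stays between 2.06 and 2.21, Mzb1 has both kinds of circle, and Prdm1 and Tnfrsf17 have open circles alone.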

How the data were processed

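The authors deposited intensities, 1 for each probe set on each array, made with RMA per the submitters' processing notes and given on a linear scale from 6.27 to 26700. The version of RMA, its annotation and the build are unknown here. Quantile normalization within RMA would hide a shift of all genes.

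All 35556 probe sets were fitted with limma 3.58.1 in R 4.3.3 (lmFit, eBayes, no trend, no covariates) on log2(intensity + 1), ERT2 replicates 1 to 3 against Cre-ERT2 replicates 1 to 3. A probe set was named where the platform annotation gives 1 gene (21789 probe sets; 1621 have several and 12146 none); of several for a gene, the brightest by mean was used. Sequences are from RefSeq (GRCm38.p6). The members and all 15 other gene lists were chosen with earlier results of these data known. Named by rule were the members, Sox4, up to 6 genes per list by smallest p, and the 5 nearest profiles to Jchain. Igll1, Cd79b and Ebf1 were named outside this rule. Bach2, Bcl6, Ciita, Cd3e and Csf1r were added after their values were seen. So were the counts of the secretory and plasma-cell programme lists by sign, and the sums without Lyz2 or Tlr9. Listed genes with no probe set of their own were not analysed here. There were 18 alternatives, among them each array left out in turn.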

Additional observations from a re-analysis of the deposited data

How the results depend on the processing

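No measure of background is in the table, so the precision of dim probe sets such as those of Prdm1 and Tnfrsf17 is limited in a way that cannot be given. Jchain, Xbp1 and Sdc1 kept direction and call in all 18 alternatives, with differences from 2.06 to 2.21, from 0.33 to 0.41 and from -0.69 to -0.59. Members called higher numbered 2 or 3 and members called lower 1 in each. Prdm1 and Tnfrsf17 passed in none of the 17 alternatives that kept them (-0.18 to -0.10 and 0.04 to 0.13). The excess of the change of Jchain over that of Sdc1 was 2.71 with a pseudocount of 16. Over all 5 pairs the excess lay between 1.69 and 2.79.

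Probe sets called higher and lower numbered 2415 and 1612 with estimated array weights, and from 606 to 1319 and from 654 to 883 with 1 array left out. Plasma-cell programme genes called higher numbered 5 with array weights. Secretory genes called higher numbered 12 with an intensity trend, 10 among the brighter probe sets and 10 among probe sets of 1 gene, 11 with array weights, 7 with a pseudocount of 16, and from 0 to 2 with 1 array left out, where 1 or 2 were lower. Of B-cell genes silenced in plasma cells 1 or 2 were higher with 1 array left out. The cause of these shifts was not tested.

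The labels do not say that replicate numbers pair the samples, and the samples were treated as unpaired. Deviations of same-numbered arrays correlated with r of 0.205, 0.344 and -0.0491, and those of differently numbered arrays with r from -0.43 to 0.325. These values do not settle whether the samples were paired. With the replicate number as a block 2 members were higher, as Mzb1 lost its call (0.0549), 2 secretory genes were higher and 1 was lower, and 959 probe sets were higher and 877 lower.

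Values of genes that were not called crossed 0. Tnfsf13b was -0.0029 with cyclic loess, -0.02 with array weights, and from -0.04 to 0.05 with 1 array left out. Fcmr was -0.0026 with array weights and from -0.03 to 0.12 with 1 array left out. Sdc2 lay between -0.08 and 0.02 with 1 array left out, at 0.0048 without ERT2 replicate 1.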
